A study of Mus musculus with 8 samples.

Results

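Matrix metalloproteinases and the tissue inhibitors that bind them were followed in 3T3-L1 mouse cells, a preadipocyte line, grown flat or as spheroids and with or without adipogenic induction. The members were 10 genes of 49585 in the count table, found by their Ensembl identifiers: the metalloproteinases Mmp2, Mmp3, Mmp8, Mmp11, Mmp13 and Mmp14 and the inhibitors Timp1, Timp2, Timp3 and Timp4. RNA was sequenced from 4 groups of 2 libraries, all taken on day 7. The 3D induced and 3D uninduced groups were hanging-drop spheroids seeded with 20000 cells in 28 µL, and the 2D induced and 2D uninduced groups were flat cultures. Both induced groups had troglitazone at 10 µM and insulin at 1 µg/ml for 7 days, with dexamethasone at 250 nM and triiodothyronine at 10 nM in the first 2 days. Both uninduced groups had none of these, and the medium of all 4 groups was high-glucose DMEM with calf serum, biotin, pantothenate and methylcellulose. All libraries come from 1 cell line. The labels call the samples independently prepared and do not say whether each came from its own culture, so p-values reflect no more than how far these samples vary, which may be technical.

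Metalloproteinases are zinc enzymes, secreted or held in the cell membrane as inactive precursors, that cut collagens and other proteins of the extracellular matrix once their propeptide is removed. Tissue inhibitors of metalloproteinases bind the active site of these enzymes, and Timp2 also joins Mmp14 and the Mmp2 precursor in a complex at the cell surface in which Mmp14 activates Mmp2. In adipose tissue, Mmp14 is known for the remodelling of fibrillar collagen that lets fat cells enlarge, and 3T3-L1 cells change their matrix from a fibroblast type to a basement membrane type as they store fat.

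The libraries held 11839374 to 21169390 counts, and 15255 genes, among them all 10 members, passed the filter on low counts. Values are given as CPM, counts scaled to library size after TMM adjustment, where 1 CPM stood for 11.2 to 20.1 counts. Others are given as TPM, counts divided by exonic length and scaled to the same total in each library, without the TMM adjustment. The 2 scales can therefore order groups differently. The 3D induced libraries stood apart from each other: 2159 genes differed by 2-fold or more between them, against 380 to 561 between the libraries of the other groups. Of 8 adipocyte markers, 6 were higher in 3D induced than in 3D uninduced cultures and 8 were higher in 2D induced than in 2D uninduced cultures. The summed CPM of 8 preadipocyte and fibroblast markers was 14676 and 4505 in the 3D induced libraries, 11204 and 13004 in the 3D uninduced, 22387 and 21874 in the 2D induced and 34745 and 35440 in the 2D uninduced ones, and of these markers Cd34 stayed between 0.509 and 1.49 CPM in all 8 libraries.

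In flat culture, Mmp3, Mmp8, Mmp13 and Timp3 were lower and Timp4 higher with induction. In spheroids without induction, Mmp8, Mmp13 and Timp1 were higher and Mmp2 and Timp3 lower than in flat cultures. Calls needed 2 things in edgeR's quasi-likelihood test: a difference of 2-fold or more, and a p under 0.05 after Benjamini-Hochberg adjustment over all 15255 genes. Every adjusted p given here is from this test unless another is named. In bulk RNA, fewer cells of a type and less RNA per cell cannot be told apart. In 2D induced against 2D uninduced cultures, 4 of the 10 members were lower (Mmp3, Mmp8, Mmp13 and Timp3) and 1 was higher (Timp4), where 1.34% of all genes tested were lower and 3.17% higher. The median log2 fold change of the members was -0.86, and that of all genes 0.00. In 3D induced against 3D uninduced cultures, 3 members were lower (Mmp8, Mmp11 and Timp1) and 0 higher, where 0.328% of all genes were lower and 0.583% higher. The members' median was -0.90 and that of all genes 0.04. At an unadjusted p under 0.05, Mmp13 and Mmp14 were the 2 members left out in this comparison, and Timp4 was the 1 member above 0 among the other 8.

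Between spheroids and flat cultures without induction, 3 members were higher (Mmp8, Mmp13 and Timp1) and 2 lower (Mmp2 and Timp3), where 5.42% of all genes were higher and 4.02% lower. With induction, 3 were higher (Mmp3, Mmp8 and Mmp13) and 1 lower (Timp4), where 6.94% of all genes were higher and 5.46% lower. The members' medians in these comparisons were -0.16 and -0.34, and that of all genes was 0.03 in both. In the interaction, which is the change with induction in 3D minus that in 2D, only Mmp13 was called, on the higher side, where 0.0393% of all genes were called higher and 0.341% lower. Each group serves in 2 of the 4 pairwise comparisons, so their values share libraries.

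**Figure D1:**
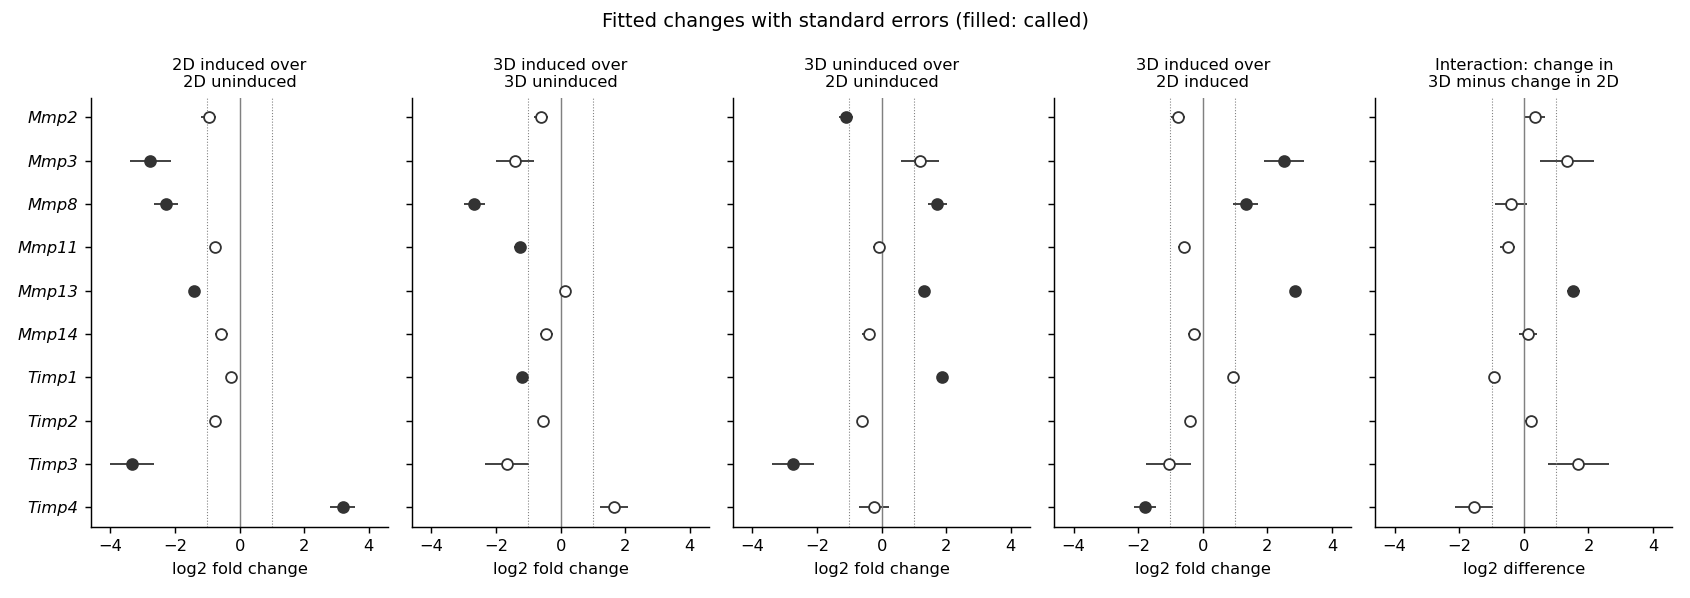
Fitted log2 changes of the 10 genes in the 4 comparisons and, at the right, the interaction (log2 difference), with bars for the standard error. Filled points are called, open points are not, and dotted lines mark a 2-fold change. Mmp13 is called in every panel but that of 3D induced over 3D uninduced cultures, where it lies at 0.12.

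All 18 called values kept their sign in the 8 fits that left out 1 library, while most of the calls were lost in at least 1 of these fits. Mmp3 in induced spheroids had the widest range of log2 fold change, 0.92 to 3.25, and Timp3 in uninduced spheroids the next, -3.37 to -2.31. Several calls were lost without a library of a group outside the comparison, since all 8 libraries share the estimate of spread. Of the 18 calls over the 5 comparisons, 5 were made again in each of the 8 fits that left out 1 library: Mmp13 with induction in 2D, Timp1 with induction in 3D, Mmp13 and Timp1 in uninduced spheroids against uninduced flat cultures, and Mmp13 in induced spheroids against induced flat cultures. For induction in 2D, 1 member was called without 2D uninduced replicate 1, 2 without 2D uninduced replicate 2 or either 2D induced library, and 3 without either 3D uninduced library. For induction in 3D, 1 was called without either 2D induced library or without 3D uninduced replicate 2, and 5 without 3D induced replicate 1. For uninduced spheroids against flat cultures, 2 were called without either 2D uninduced library and 3 without either 3D uninduced library. For induced spheroids against flat cultures, 2 were called without 2D induced replicate 1 or 3D induced replicate 2, and 1 without 2D induced replicate 2. Fitted on only the 4 libraries compared, 0 members were called with induction in 3D, and 2, Mmp13 and Timp4, in induced spheroids against flat cultures. In that last comparison limma-voom with group weights called only Mmp13.

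Mmp2, a gelatinase that cuts denatured collagen and type IV collagen, was the most abundant member per length in every group. It had 2491 and 1574 CPM in 3D induced, 2781 and 3413 CPM in 3D uninduced, 3414 and 3454 CPM in 2D induced and 6519 and 6806 CPM in 2D uninduced cultures. Both 2D uninduced libraries were above all 6 others, and the 3D induced libraries were the lowest. The 2D induced and 3D uninduced groups all but met, at 3414 and 3413 CPM. Per length their order turned, with means of 2851 TPM in 2D induced and 3221 TPM in 3D uninduced cultures. Mmp2 fell in uninduced spheroids against uninduced flat cultures (log2 fold change -1.11 ± 0.22 SE, adjusted p = 0.0137). That call was lost without any 1 of the 4 libraries compared, at log2 fold changes of -1.26 to -0.97 and adjusted p of 0.0575 to 0.115. With induction in 2D the log2 fold change was -0.96 ± 0.22, at adjusted p = 0.0394 and under 2-fold, and with induction in 3D it was -0.61 ± 0.22 (adjusted p = 0.306). In induced spheroids against induced flat cultures it was -0.76 ± 0.22 (adjusted p = 0.0391), and it passed 2-fold, at -1.13, without 3D induced replicate 1. The summed fibroblast markers were also highest in 2D uninduced cultures, and their part in the Mmp2 differences was not tested. Most of that sum was Col1a2, Col1a1 and Dlk1, and of the list only Dlk1 was called lower in uninduced spheroids against flat cultures. The receptor Pdgfra was at -0.13 (mean 768 CPM in 3D uninduced and 838 CPM in 2D uninduced cultures). Another receptor, Pdgfrb, was at 0.26 (439 CPM in 3D uninduced and 366 CPM in 2D uninduced cultures), and neither was called.

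Mmp14, the membrane-type collagenase that activates Mmp2 at the cell surface, was not called in any of the 5 comparisons. It had 1675 and 1158 CPM in 3D induced, 1689 and 2146 CPM in 3D uninduced, 1676 and 1743 CPM in 2D induced and 2459 and 2598 CPM in 2D uninduced cultures. The 2D uninduced libraries were above all others, while the ranges of 3D uninduced and 2D induced cultures overlapped. The log2 fold change with induction was -0.44 ± 0.20 in 3D (adjusted p = 0.433) and -0.56 ± 0.20 in 2D (adjusted p = 0.133). That between spheroids and flat cultures was -0.27 ± 0.20 with induction (adjusted p = 0.335) and -0.40 ± 0.20 without (adjusted p = 0.191).

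Mmp11, a stromelysin by name that furin-like enzymes activate inside the cell, fell with induction in spheroids. It had 114 and 87.3 CPM in 3D induced and 211 and 273 CPM in 3D uninduced cultures, a log2 fold change of -1.27 ± 0.17 (adjusted p = 0.0176). The groups did not overlap, and the call was lost without any 1 of the 6 libraries other than the 3D induced ones, at log2 fold changes of -1.44 to -1.07 and adjusted p of 0.0636 to 0.127. In flat culture it had 147 and 157 CPM in 2D induced and 252 and 264 CPM in 2D uninduced libraries (-0.76 ± 0.17, adjusted p = 0.0309, under 2-fold). The uninduced groups overlapped between culture formats, with a log2 fold change of -0.09 ± 0.17 (adjusted p = 0.738) in spheroids against flat cultures. Mmp11 shares 155 exonic bases, 5.58% of its exons, with Chchd10 on the opposite strand, and the strand setting of the counting is not given in the sources used here.

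**Figure D2:**
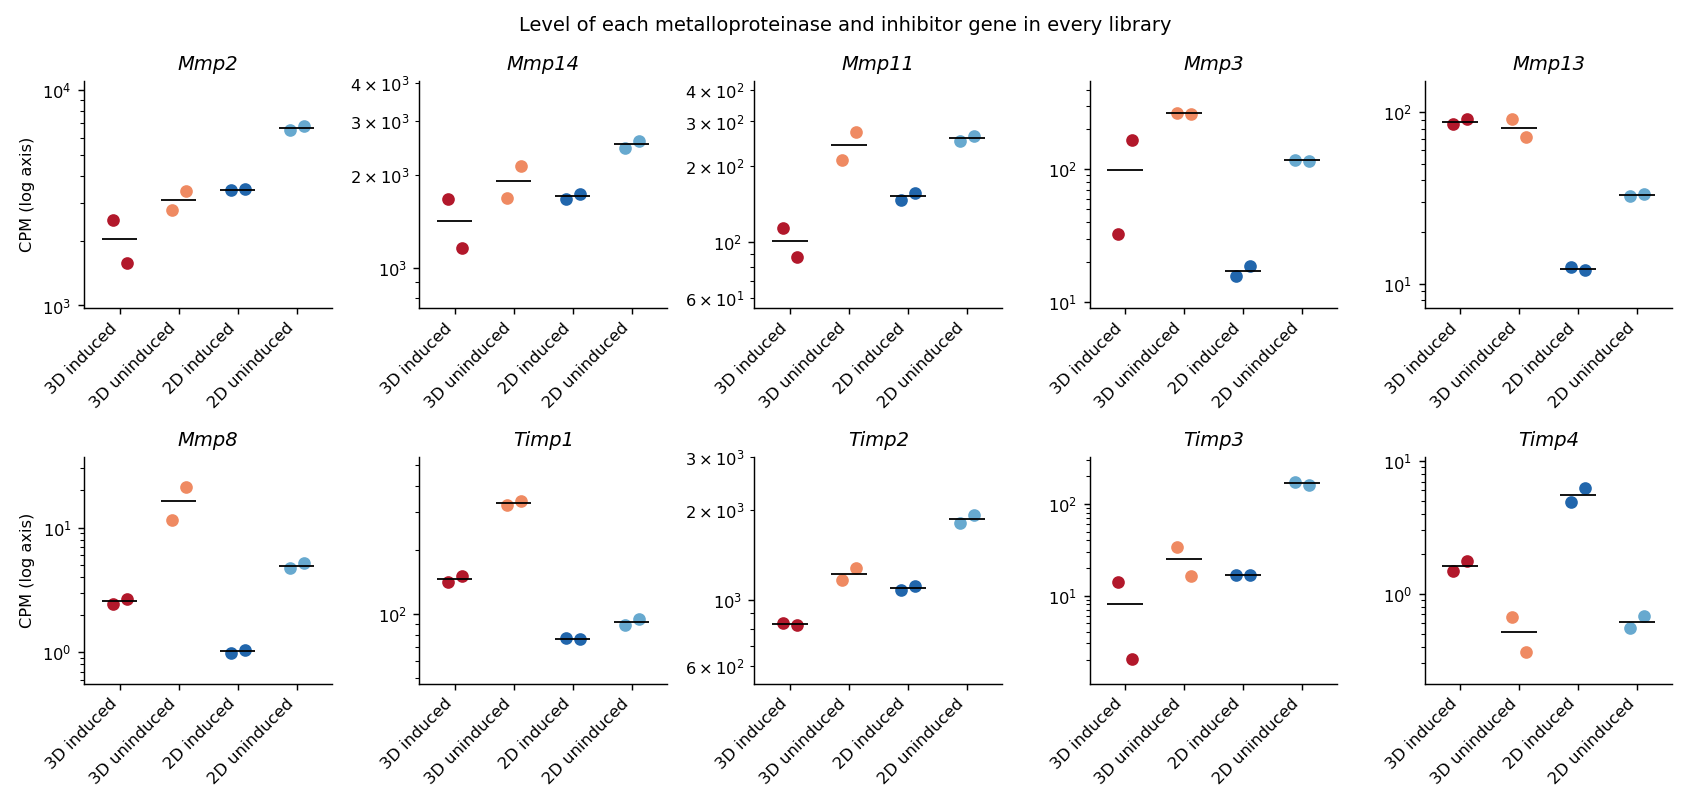
CPM on a log axis of each of the 10 genes in every library, 1 point per library and a line at the mean of the 2 libraries of a group. Mmp13 is high in all 4 spheroid libraries, Timp1 is highest in the 3D uninduced libraries, Timp3 is highest in the 2D uninduced libraries, and the 3D induced points lie far apart for Mmp3 and Timp3.

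The collagenases Mmp8 and Mmp13 and the stromelysin Mmp3, which cuts proteoglycans and activates other metalloproteinases, lie in 1 gene cluster on chromosome 9. The cluster holds 10 metalloproteinase genes over 427 kb, from 7272514 to 7699585 in GRCm38/mm10. The promoters of these 3 members, all higher in induced spheroids than in induced flat cultures, are printed here. They were picked after the motif matches were seen. They are 300 bases each on the plus strand, 250 before to 50 after the start as RefSeq has it for GRCm38.p6: chr9:7272264-7272563 for Mmp13, chr9:7445572-7445871 for Mmp3 and chr9:7558179-7558478 for Mmp8. Capitals mark TGAGTCA, the AP-1 motif, and TATAAA, the TATA box, on either strand, so that TGACTCA and TTTATA are the same motifs read on the other strand.
Mmp13: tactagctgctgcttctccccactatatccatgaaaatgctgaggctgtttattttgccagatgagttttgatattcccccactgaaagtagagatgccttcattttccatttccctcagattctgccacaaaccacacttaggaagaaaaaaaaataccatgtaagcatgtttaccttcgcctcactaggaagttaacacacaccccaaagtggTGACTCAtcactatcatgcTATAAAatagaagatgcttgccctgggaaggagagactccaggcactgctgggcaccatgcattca
Mmp3: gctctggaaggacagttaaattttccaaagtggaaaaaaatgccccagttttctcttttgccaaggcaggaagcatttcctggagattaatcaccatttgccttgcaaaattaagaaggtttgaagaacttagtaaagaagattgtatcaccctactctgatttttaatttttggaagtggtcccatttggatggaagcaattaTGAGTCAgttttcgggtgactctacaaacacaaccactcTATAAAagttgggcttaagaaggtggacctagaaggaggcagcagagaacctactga
Mmp8: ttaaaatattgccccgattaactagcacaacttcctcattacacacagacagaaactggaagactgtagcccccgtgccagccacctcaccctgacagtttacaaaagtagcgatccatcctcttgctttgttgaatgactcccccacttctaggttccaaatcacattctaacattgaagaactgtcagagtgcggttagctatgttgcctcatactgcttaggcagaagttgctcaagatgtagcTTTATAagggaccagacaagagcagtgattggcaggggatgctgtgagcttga
In the form TGAGTCA, the AP-1 motif began 35 bases before the start in Mmp13, on the minus strand, and 46 bases before it in Mmp3. Mmp8 had no such letters in this window, and other forms of the motif were not searched. TGAGTCA was in 2 of the 9 member promoters matched and in 5.2% of all 32851 promoters of the same length. The TATA box was in these 3 members, in none of the other 6 matched, and in 13.6% of all promoters. Its letters began 16 bases before the start in Mmp13, 7 in Mmp3 and, on the minus strand, 3 in Mmp8. These positions depend on the RefSeq start used, and whether the letters act as a TATA box was not tested. GGGCGG, the GC box, was in none of the 3, in 5 of the other members (Mmp11, Mmp14, Timp1, Timp2 and Timp3) and in 35.7% of all promoters. The direct repeat bound by peroxisome proliferator-activated receptors, searched as 2 copies of AGGTCA with 1 base between them, was in 0 of the 9 and in 0.0396% of all promoters. The serum response element, searched in 1 of its forms, was also in 0 of the 9 and in 0.0639% of all promoters. A match of letters is a description and shows no binding.

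Mmp13, a collagenase known from cartilage and bone as well as from stromal cells, was high in spheroids whether or not they were induced. It had 85.1 and 90.5 CPM in 3D induced, 91.2 and 71 CPM in 3D uninduced, 12.5 and 12 CPM in 2D induced and 32.4 and 33.2 CPM in 2D uninduced cultures. The 4 spheroid libraries were above the 4 flat ones, and the 2 spheroid groups overlapped. Mmp13 rose in spheroids against flat cultures with induction (2.84 ± 0.15, adjusted p = 9.48e-05), a 7.16-fold difference, and without it (1.31 ± 0.14, adjusted p = 0.00153), a 2.48-fold difference. With induction it fell in 2D (-1.42 ± 0.15, adjusted p = 0.00147), while its log2 fold change in 3D was 0.12 ± 0.14 (adjusted p = 0.822). The test of that difference itself gave 1.53 ± 0.20 (adjusted p = 0.0299). The interaction call was lost without any 1 of the 6 libraries other than the 3D induced ones, at log2 differences of 1.36 to 1.72 and adjusted p of 0.0815 to 0.275. Summed cartilage and bone markers were 188 and 142 CPM in 3D induced, 215 and 184 CPM in 3D uninduced, 98.4 and 107 CPM in 2D induced and 141 and 139 CPM in 2D uninduced cultures. Nearly all of that sum was the transcription factors Sox9 and Runx2. Of the 9 markers, 4 were tested and 0 of these called in any comparison. In spheroids against flat cultures Sox9 was at 0.65 ± 0.14 with induction (adjusted p = 0.0123) and 0.66 ± 0.14 without (adjusted p = 0.0145). Runx2 was at 0.71 ± 0.19 with induction (adjusted p = 0.0274) and 0.26 ± 0.19 without (adjusted p = 0.36), all under 2-fold. The more specific Sp7, Bglap, Ibsp, Col2a1 and Col10a1 had too few counts to be tested, with 0 to 13 counts in each group, and the part of this list in the Mmp13 differences was not tested.

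Mmp3 fell with induction in flat culture and was higher in induced spheroids than in induced flat cultures. It had 32.7 and 165 CPM in 3D induced, 268 and 260 CPM in 3D uninduced, 15.6 and 18.8 CPM in 2D induced and 118 and 116 CPM in 2D uninduced cultures. The 2D induced libraries were the lowest and the 3D uninduced libraries the highest, and the 3D induced libraries, 5.04-fold apart, spanned the 2D uninduced ones. The log2 fold change was -2.76 ± 0.63 with induction in 2D (adjusted p = 0.0359), and the call was lost without any 1 library other than the 3D induced ones (-2.94 to -2.68, adjusted p of 0.0844 to 0.249). In induced spheroids against induced flat cultures it was 2.52 ± 0.62 (adjusted p = 0.0217). Without 3D induced replicate 2 the value was 0.92, under 2-fold, and without either 2D induced library the call was lost at 2.40 and 2.67 (adjusted p = 0.135 and 0.113).

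With induction in 3D, the log2 fold change of Mmp3 was -1.42 ± 0.58 and not called (adjusted p = 0.369). It was -3.02, and called, without 3D induced replicate 2. In uninduced spheroids against uninduced flat cultures the ranges of Mmp3 were 260 to 268 CPM and 116 to 118 CPM. These groups were far apart for their spread, yet the value of 1.18 ± 0.58 missed the threshold (adjusted p = 0.183). The fit gives all 4 groups 1 spread per gene, and the value passed without either 3D induced library, at adjusted p = 1.87e-08 and 2.31e-08. The interaction was 1.34 ± 0.83 (adjusted p = 0.779), with 2.07, and called, without 3D induced replicate 1 and -0.26 without replicate 2.

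Mmp8, known as the neutrophil collagenase, was the least abundant metalloproteinase of the set and moved with both factors. It had 2.44 and 2.69 CPM in 3D induced, 11.5 and 21.2 CPM in 3D uninduced, 0.983 and 1.05 CPM in 2D induced and 4.73 and 5.2 CPM in 2D uninduced cultures. No groups overlapped, in the order 3D uninduced, 2D uninduced, 3D induced and 2D induced from high to low. Mmp8 fell with induction in 3D (-2.67 ± 0.32, adjusted p = 0.0131) and in 2D (-2.27 ± 0.37, adjusted p = 0.00958). It rose in spheroids with induction (1.33 ± 0.38, adjusted p = 0.036) and without (1.72 ± 0.30, adjusted p = 0.00784). The interaction was -0.40 ± 0.50 (adjusted p = 0.928).

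In the 4 pairwise comparisons Mmp8 kept its direction in every fit that left out 1 library, while its calls were lost in some of them. The interaction, which was not called, ranged from -0.77 to 0.11 over these fits. The fall of Mmp8 with induction in 3D was also not called by limma-voom with group weights (-2.59, limma-voom adjusted p = 0.28). In 2D the log2 fold change was -2.38 to -2.24 over the 8 fits, and the call was lost without any 1 of the 4 flat libraries (adjusted p of 0.0641 to 0.0972). In 3D it was -3.04 to -2.16, and the call was lost without either 2D induced library, which are not in that comparison (adjusted p = 0.0535 and 0.0537), or 3D uninduced replicate 2 (0.0615). Between formats it was 1.25 to 1.39 with induction, with the call lost without any flat library or 3D induced replicate 2 (0.0596 to 0.153). Without induction it was at least 1.21 in the 8 fits, and the call was lost without either 2D uninduced library (1.64 to 1.78, adjusted p of 0.0668 to 0.0857). Of 7 neutrophil markers, S100a9 and Ly6g were at 0 in all 8 libraries, and the summed list was 3.59 and 6.73 CPM in 3D induced, 6.93 and 10.1 CPM in 3D uninduced, 1.16 and 2.52 CPM in 2D induced and 0.498 and 0.301 CPM in 2D uninduced cultures. Nearly all of that sum was S100a8, a calcium-binding protein, and Camp, an antimicrobial peptide. These 2 were the only markers of the list tested, and both were called higher in uninduced spheroids than in uninduced flat cultures. S100a8 had 149 counts there against 12, and Camp 83 against 1. Neither was called in another comparison, and the part of this list in the Mmp8 differences was not tested.

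**Figure D3:**
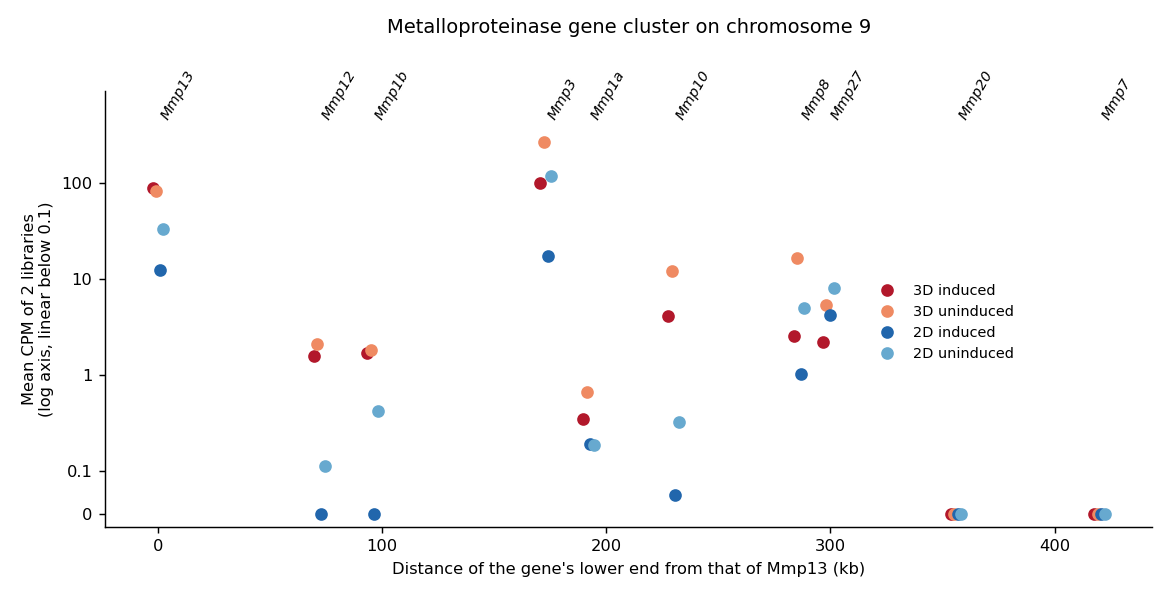
Mean CPM of 2 libraries for the 10 metalloproteinase genes of the chromosome 9 cluster (log axis, linear below 0.1), against the distance of each gene's lower end from that of Mmp13 in kb. Mmp13 and Mmp3 are the most counted, Mmp10, Mmp12 and Mmp1b have their higher means in the spheroid groups, and Mmp20 and Mmp7 are at 0.

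Of the 7 other genes of this cluster, Mmp20 and Mmp7 had 0 counts and Mmp1a 40 counts in the 8 libraries. Mmp10, a close relative of Mmp3, had 4.87 and 3.39 CPM in 3D induced, 18.1 and 5.82 CPM in 3D uninduced, 0.0893 and 0 CPM in 2D induced and 0.199 and 0.452 CPM in 2D uninduced cultures. It rose in spheroids with induction (adjusted p = 0.00523) and without (adjusted p = 0.00328). Its ratio was 104 with induction (95% counting interval 18.3 to 4137, from 130 counts against 1) and 39.8 without (21.4 to 83.8). Mmp12, the macrophage elastase, was 23.6-fold higher in uninduced spheroids than in uninduced flat cultures (7.69 to 118, from 58 counts against 3) and at least 13.6-fold higher in induced spheroids than in induced flat cultures, where it had 0 counts. This bound uses a floor of 3 counts over the group, and intervals and bound cover counting error only. Mmp1b had 0.541 and 2.87 CPM in 3D induced libraries and 0 in both 2D induced libraries, so most of its 57 counts came from 3D induced replicate 2. Summed over 8 macrophage markers, the level was 28.8 and 54.2 CPM in 3D induced, 66.1 and 62.4 CPM in 3D uninduced, 18.7 and 18.6 CPM in 2D induced and 28.6 and 21.5 CPM in 2D uninduced cultures. Of these markers 5 were tested: Cd14 was higher in spheroids with induction (1.82) and without it (2.16), Cd68 was higher with induction (3.66), and Lyz2 was lower in both (-2.64 and -2.75), all as log2 fold changes. The part of this list in the Mmp12 differences was not tested. The defining markers Ptprc and Adgre1 were at 0 in all 8 libraries. Mmp12 and Mmp1b were named after their values were seen, overlap on opposite strands, and Mmp1b is a near copy of Mmp1a.

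Timp1, a secreted inhibitor, was higher in uninduced spheroids than in flat cultures and lower in spheroids with induction. It had 141 and 151 CPM in 3D induced, 327 and 339 CPM in 3D uninduced, 77 and 76.4 CPM in 2D induced and 89.3 and 94.6 CPM in 2D uninduced cultures. The 3D uninduced libraries were the highest, the 3D induced ones next, and no groups overlapped. Timp1 rose in uninduced spheroids against uninduced flat cultures (1.86 ± 0.10, adjusted p = 1.39e-04), a 3.62-fold difference, and fell with induction in 3D (-1.19 ± 0.10, adjusted p = 0.00258). Fitted on the 4 spheroid libraries alone, the change with induction was -1.21 at adjusted p = 0.198. In induced spheroids against induced flat cultures it was at 0.93 ± 0.10 (adjusted p = 0.00108), under 2-fold, and with induction in 2D at -0.26 ± 0.10 (adjusted p = 0.159). The interaction was -0.93 ± 0.14 (adjusted p = 0.0477) and also under 2-fold.

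Timp2, the inhibitor that takes part in the activation of Mmp2, was not called in any comparison. It had 835 and 820 CPM in 3D induced, 1161 and 1274 CPM in 3D uninduced, 1078 and 1113 CPM in 2D induced and 1805 and 1922 CPM in 2D uninduced cultures. The order from high to low was 2D uninduced, 3D uninduced, 2D induced and 3D induced, with no overlap. The log2 fold change with induction was -0.56 ± 0.12 in 3D (adjusted p = 0.0741) and -0.77 ± 0.12 in 2D (adjusted p = 0.00762, under 2-fold). In spheroids against flat cultures it was -0.40 ± 0.12 with induction (adjusted p = 0.0366) and -0.61 ± 0.12 without (adjusted p = 0.011), both under 2-fold.

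Timp3, an inhibitor that binds the matrix, was high in 2D uninduced cultures and low in every other group. It had 14.2 and 2.05 CPM in 3D induced, 33.9 and 16.3 CPM in 3D uninduced, 16.6 and 16.7 CPM in 2D induced and 175 and 163 CPM in 2D uninduced cultures. The ranges of 3D uninduced and 2D induced cultures overlapped, and the 3D induced libraries were 6.94-fold apart. Timp3 fell with induction in 2D (-3.34 ± 0.68, adjusted p = 0.0245), a level 10.1-fold lower, and in uninduced spheroids against uninduced flat cultures (-2.75 ± 0.66, adjusted p = 0.0244). Both calls were lost without any 1 of the 6 libraries other than the 3D induced ones. The log2 fold change was then -3.42 to -3.33 in the first comparison (adjusted p of 0.0527 to 0.205) and -3.37 to -2.31 in the second (adjusted p of 0.0562 to 0.159). With induction in 3D the value was -1.65 ± 0.68 (adjusted p = 0.379), and -3.61, and called, without 3D induced replicate 1. In induced spheroids against induced flat cultures it was -1.06 ± 0.69 (adjusted p = 0.281), and -3.02, and called, without that library.

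Timp4, an inhibitor known from heart and adipose tissue, was the only member that rose with induction in flat culture. It had 1.49 and 1.76 CPM in 3D induced, 0.664 and 0.364 CPM in 3D uninduced, 4.91 and 6.23 CPM in 2D induced and 0.548 and 0.678 CPM in 2D uninduced cultures, from 5 to 89 counts per library. The uninduced groups overlapped, and the 2D induced libraries were above all others. Timp4 rose with induction in 2D (3.19 ± 0.38, adjusted p = 0.00271), a 9.11-fold difference, and was lower in induced spheroids than in induced flat cultures (-1.78 ± 0.34, adjusted p = 0.00866). The first call was lost without 2D uninduced replicate 1 (2.98, adjusted p = 0.0641) and the second without 2D induced replicate 2 (-1.59, adjusted p = 0.0843). With induction in 3D it was at 1.65 ± 0.42 (adjusted p = 0.123), and at 1.76, and called, without 3D induced replicate 1. The sum of its counts and those of the overlapping Syn2 was called too (1.47, adjusted p = 0.0272). Syn2 had 2.59 and 2.67 counts for each count of Timp4 in the 3D induced libraries, so that sum is mostly Syn2. The summed adipocyte markers had the same order of the induced groups, with 4087 and 4561 CPM in 3D induced and 10746 and 10256 CPM in 2D induced cultures, and their part in the Timp4 values was not tested.

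Promoters of Timp1 and Timp3 are printed for contrast with the 3 metalloproteinases of chromosome 9, as the inhibitors with the largest called changes by culture format. They are on the plus strand, chrX:20869916-20870215 for Timp1 and chr10:86300162-86300461 for Timp3, from the same RefSeq table for GRCm38.p6. Capitals mark the GC box, here read on the other strand as CCGCCC.
Timp1: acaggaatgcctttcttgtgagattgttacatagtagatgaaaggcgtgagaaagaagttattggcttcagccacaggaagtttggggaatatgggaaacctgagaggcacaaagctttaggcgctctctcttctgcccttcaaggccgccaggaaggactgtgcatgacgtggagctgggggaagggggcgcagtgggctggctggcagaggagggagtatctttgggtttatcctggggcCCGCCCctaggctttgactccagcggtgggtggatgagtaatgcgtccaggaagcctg
Timp3: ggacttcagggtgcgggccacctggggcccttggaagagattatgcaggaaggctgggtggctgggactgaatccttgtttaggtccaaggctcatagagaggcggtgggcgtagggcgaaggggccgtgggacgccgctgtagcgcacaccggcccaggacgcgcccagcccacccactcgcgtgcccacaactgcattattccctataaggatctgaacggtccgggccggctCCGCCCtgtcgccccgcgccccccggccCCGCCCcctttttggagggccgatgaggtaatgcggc
Timp1 had 1 GC box, beginning 8 bases before the start, and Timp3 had 2. Neither window held TGAGTCA, and whether they hold other forms of the AP-1 motif was not searched. Timp4, also called by format in induced cultures, had neither a GC box nor a TATA box and is not printed. Bases G and C made up 55% of the Timp1 and 67% of the Timp3 window, against 43.7% in Mmp13, 40% in Mmp3 and 46% in Mmp8. The median over all promoters was 52.7%.

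Of the inhibitor genes, 3 lie within synapsin genes, which code for proteins of synaptic vesicles, on the opposite strand: Timp1 in Syn1, Timp3 in Syn3 and Timp4 in Syn2. Timp3 and Syn3 share 1733 exonic bases, 21.3% of the exons of Timp3 and 14.1% of those of Syn3. Timp4 and Syn2 share 90, and Timp1 and Syn1 share 0. Across the 8 libraries, counts of Syn3 were 0.333 to 0.418 of those of Timp3, while Timp3 itself varied from 2.05 to 175 CPM. Syn3 fell with induction in 2D by the same log2 amount as Timp3, at -3.34 ± 0.62 (adjusted p = 0.0168). Without the strand setting of the counting, reads of the shared exons cannot be assigned to either gene.

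The other pairs did not keep such a ratio. Syn2 had 0.889 to 5.4 counts for each count of Timp4 and rose with induction in 2D (4.39 ± 0.31, adjusted p = 2.27e-04), as Timp4 did. In uninduced spheroids against uninduced flat cultures Syn2 rose (1.22 ± 0.34, adjusted p = 0.0391) while Timp4 was at -0.24 ± 0.46 (adjusted p = 0.771). Syn1 had 0.00464 to 0.0186 counts for each count of Timp1, at 0.357 to 3.64 CPM and 4 to 50 counts per library. The lowest and highest ratios of Syn2 to Timp4 came from 8 counts against 9 and from 27 against 5. At such low counts the ratios hold counting error, and its part in their scatter was not tested.

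**Figure D4:**
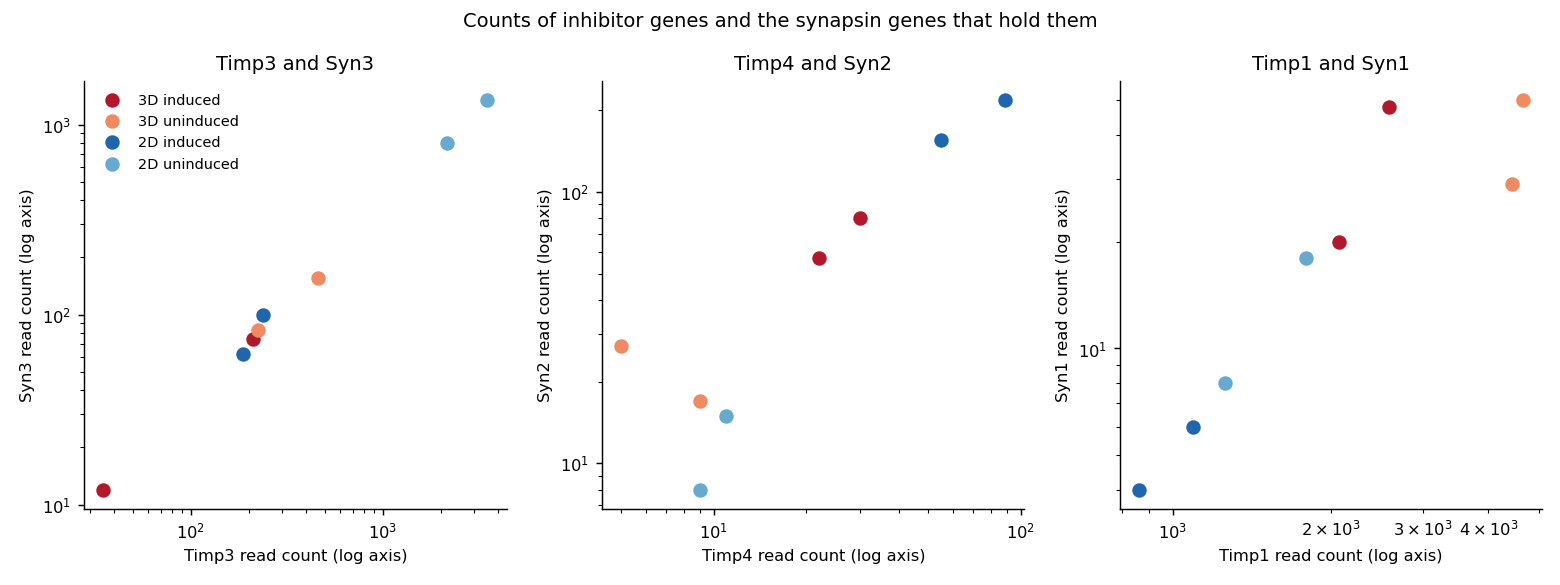
Read counts on log axes of Timp3 and Syn3, Timp4 and Syn2, and Timp1 and Syn1 in the 8 libraries, coloured by group. The 8 points of Timp3 and Syn3 lie close to a straight line, while those of the other pairs scatter.

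Levels were set against each other per length. In uninduced spheroids the order by mean TPM was Mmp2 (3221 ± 362, SD, n = 2), Timp1 (1317 ± 9.24), Mmp14 (1127 ± 154), Timp2 (1097 ± 36.9), Mmp3 (516 ± 27.4), Mmp11 (306 ± 45.7) and Mmp13 (107 ± 22.2), with Mmp8, Timp3 and Timp4 at 23.6, 10.9 and 0.308 TPM. Mmp14 and Timp2 did not differ there beyond their spread. In 2D uninduced cultures Timp2, at 1416 ± 73.7 TPM, stood second to Mmp2, at 5852 ± 222 TPM, and Timp1 had 307 ± 14.8 TPM. Mmp2 and Mmp14 together held 91.7% and 80.7% of the summed TPM of the 6 metalloproteinases in the 3D induced libraries, 80.8% and 83.1% in the 3D uninduced, 95.1% and 94.8% in the 2D induced and 93.3% and 93.4% in the 2D uninduced ones.

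The makeup of the inhibitors shifted between formats. Timp1 held 42.3% and 44.7% of the inhibitors' summed TPM in the 3D induced libraries, 54.9% and 53.7% in the 3D uninduced, 23.7% and 23% in the 2D induced and 17.2% in each of the 2D uninduced ones. All 4 spheroid libraries were above all 4 flat ones in this share, and Timp2 held most of the rest. The ratio of summed metalloproteinase TPM to summed inhibitor TPM was 2.97 and 2.15 in the 3D induced libraries, 2.05 and 2.32 in the 3D uninduced, 3.72 and 3.70 in the 2D induced and 4.30 and 4.24 in the 2D uninduced ones. It was lower in the 4 spheroid libraries than in the 4 flat ones, and the 2 spheroid groups overlapped. These are ratios of RNA levels, not of protein or enzyme activity, and no test was made of them.

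**Figure D5:**
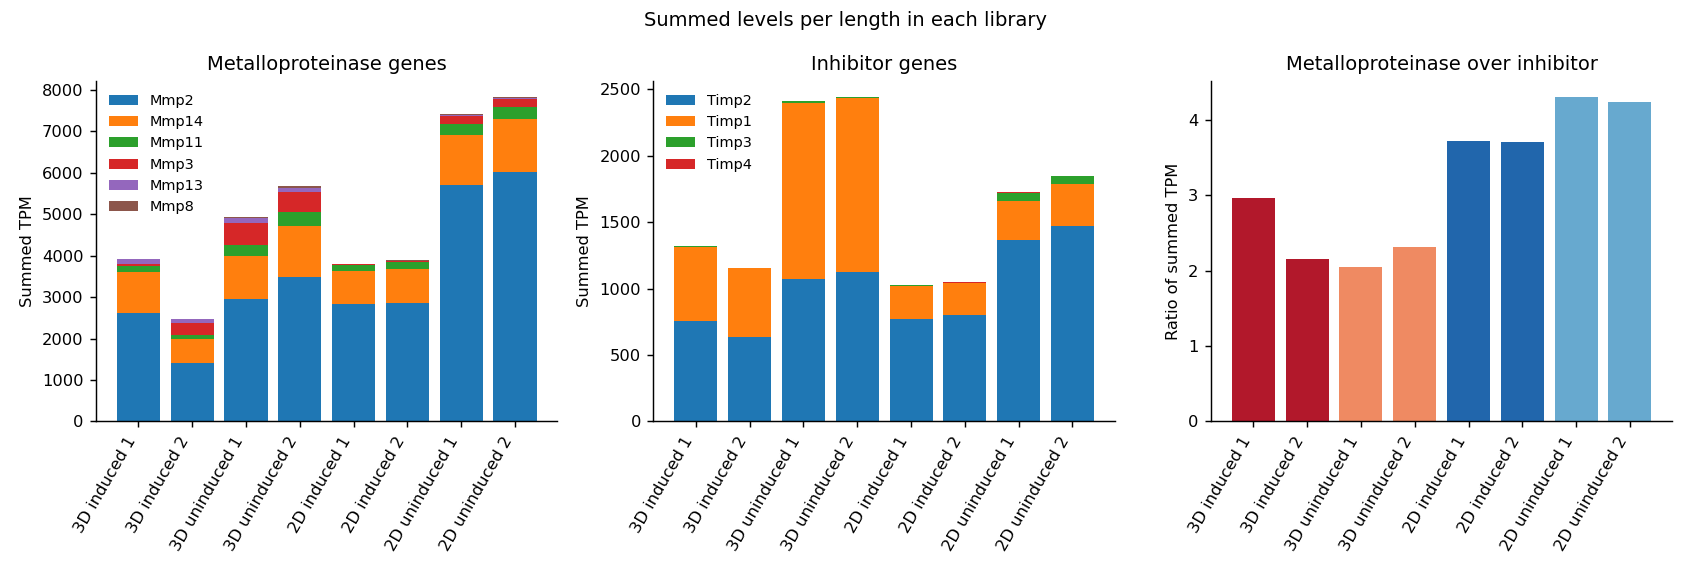
Summed TPM of the 6 metalloproteinase genes and of the 4 inhibitor genes in each library, stacked by gene, and the ratio of the 2 sums, by group and replicate. The ratio lies between 2.05 and 2.97 in the spheroid libraries and between 3.70 and 4.30 in the flat ones, and Timp1 makes up the larger part of the inhibitor bars in 3D uninduced libraries.

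Outside the members, 10 of 17 other metalloproteinase genes were tested, and 0 were called with induction in either format or in the interaction. In spheroids against flat cultures, 3 were higher with induction (Mmp10, Mmp12 and Mmp1b) and 2 without (Mmp10 and Mmp12), and 1, the membrane-bound Mmp23, was lower in both. Mmp23 fell by 1.16 on the log2 scale with induction and by 1.15 without it. Mmp9, the other gelatinase, was not called in any comparison. It had 112 and 10.7 CPM in 3D induced, 107 and 54.3 CPM in 3D uninduced, 26.4 and 22.9 CPM in 2D induced and 68.2 and 55.5 CPM in 2D uninduced cultures.

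Of 20 genes known to activate or restrain metalloproteinases, 15 were tested. With induction in 2D, 3 were lower: the plasminogen activators Plau (-1.47 ± 0.25) and Plat (-1.18 ± 0.14) and the protease inhibitor Serpine2 (-1.40 ± 0.25). With induction in 3D and in the interaction 0 were called. In uninduced spheroids against flat cultures Plaur, the receptor of urokinase (2.82 ± 0.42), and Cd44, a hyaluronan receptor (1.04 ± 0.12), were higher. There 2 were lower, Plat (-1.08 ± 0.14) and Reck, a membrane-anchored inhibitor of metalloproteinases (-1.79 ± 0.28). With induction, spheroids had higher Plaur (2.44 ± 0.43) and lower Reck (-1.93 ± 0.28) and Bsg, a membrane protein known to induce metalloproteinases (-1.16 ± 0.20). Reck thus fell in spheroids with and without induction, to 22.1 and 10.8 CPM in 3D induced libraries, against 61.6 and 63.4 CPM in 2D induced ones, and to 22.3 and 22.2 CPM in 3D uninduced libraries, against 78.5 and 75.2 CPM in 2D uninduced ones.

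All 15 substrate genes on the list were tested. With induction in 2D, 1 was lower, the adhesion-modulating glycoprotein Tnc (-3.29 ± 0.80, adjusted p = 0.0447), and with induction in 3D 1 was lower, Igfbp3, a binding protein of insulin-like growth factors (-1.73 ± 0.26, adjusted p = 0.0277). In uninduced spheroids against flat cultures, 1 was higher, Spp1 or osteopontin (1.97 ± 0.26), and 2 were lower, the fibrillar collagen Col3a1 (-1.32 ± 0.38) and the proteoglycan Dcn (-1.31 ± 0.18). With induction, Tnc (3.71 ± 0.81) and Spp1 (1.11 ± 0.25) were higher and Igfbp3 (-1.74 ± 0.26) and Dcn (-1.09 ± 0.17) lower, and 0 substrate genes were called in the interaction.

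The genes whose profile was most like each member were found as the smallest root mean square difference of centred log2 CPM over the 8 libraries, among 11094 genes. Mmp2 was nearest to Mecom (0.08) and Ablim1 (0.10), Mmp14 to Arhgef10l (0.07) and Clstn1 (0.08), and Mmp11 to Itgb5 (0.14) and Dpysl3 (0.17). Mmp13 was nearest to Sarm1 (0.23) and Runx1 (0.26), and Mmp3 to Fam180a (0.53) and Garem2 (0.57). Garem2 (0.50) was also near to Mmp8, after Slpi (0.35). Timp1 was nearest to Slc22a23 (0.16) and Trib2 (0.20), and Timp2 to Fyn (0.10) and Ctsa (0.11). Timp3 was nearest to Syn3 (0.10), the gene that holds it, with Sfrp2 (0.52) next, and Timp4 to Reep6 (0.25) and Mgll (0.29). The profile of Mmp14 itself had an SD of 0.37 on the log2 scale and that of Timp3 one of 2.05, so equal differences are smaller shares of the more variable profiles.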

How the data were processed

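The deposited file holds the authors' raw read counts per Ensembl gene for 8 libraries from a directional kit, unnormalized, as its whole numbers show. The tools named in the submitters' processing notes are HISAT2 2.1.0, featureCounts 1.6.3, Trimmomatic 0.38 and FastQC 0.11.7, and the build is mm10; for settings, strand use and annotation release nothing is given in the sources used here. Columns were matched to samples by their descriptions, and title numbers name replicates. Deviations between replicates correlated at 0.206 between the 3D uninduced and 3D induced groups and at -0.00619 to 0.0265 between all other groups. With 2 libraries per group, this cannot tell whether replicate numbers pair the samples.

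From these counts, edgeR 4.0.16 in R 4.3.3 (filterByExpr with a minimum count of 10, TMM, robust quasi-likelihood, 1 mean per group, 4 residual degrees of freedom) gave two-sided tests over 15255 genes with Benjamini-Hochberg adjustment. Each standard error is the absolute log2 fold change over the root of its F. TPM used exonic lengths of GENCODE vM21, so shares of a level depend on that choice. Of the counts, 0.0285% lay in genes without a symbol. The script was tested on simulated counts. Alternatives used DESeq2 1.42.0, limma 3.58.1 and 8 fits without 1 library.

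The members, gene lists and tests were chosen with earlier results of these data known. Named genes were the members, up to 4 called genes per list and comparison whose mean log2 CPM was 0 or more, and the 2 nearest profiles per member. Genes outside this rule were named too: Mmp12 and Mmp1b, whose means were lower, Mmp9, other genes of the chromosome 9 cluster, and markers of cell types. The rule was not applied to the marker lists. Of the list of genes that activate or restrain metalloproteinases, 1 gene is not reported here, so the counts of its higher genes are not given. Promoter sequences come from RefSeq, with no entry for Mmp2. They were searched for 5 motifs on both strands, of which 2 matched no member, and the promoters printed were picked after the matches were seen.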

Additional observations from a re-analysis of the deposited data

Results flagged for a closer look

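Mmp13 differed between the culture formats in its change with induction. Its log2 fold change was 0.12 ± 0.14 in spheroids and -1.42 ± 0.15 in flat culture, and the test of the difference gave 1.53 ± 0.20 (edgeR quasi-likelihood, adjusted p = 0.0299). Both 2D induced libraries were below both 2D uninduced libraries, while the ranges of the 3D groups overlapped. The call was lost in 6 of the 8 fits without 1 library (log2 difference 1.36 to 1.72, adjusted p of 0.0815 to 0.275) and with the replicate block (1.54, adjusted p = 0.057).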

How the results depend on the processing

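Among 790 gene values recomputed, 692 kept direction and side of the threshold, 67 lost and 21 gained a call and 10 changed sign; DESeq2 and RLE size factors kept all 50 each. The cause was not tested unless stated. Members called, of 10, were 5 with induction in 2D (3 with no filter on low counts, 8 with no fold minimum, 1 to 5 leaving out 1 library), 3 with induction in 3D (0 with only the 4 libraries compared, 1 to 5), 5 in uninduced spheroids against flat cultures (2 to 6), 4 in induced ones (1 with limma-voom, 2 with only the 4 libraries, 8 with no fold minimum, 1 to 6) and 1 in the interaction (0 with the replicate block, 2 with no fold minimum, 2 with synapsin counts added, 0 to 2).

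All genes called were 689 with induction in 2D (1348 with limma-voom, 1254 with only the 4 libraries, 1354 with no fold minimum, 223 to 1141 leaving out 1 library) and 139 in 3D (336 with no filter, 242 with DESeq2, 88 with limma-voom, 0 with only the 4 libraries, 24 to 1175). They were 1440 in uninduced spheroids against flat cultures (3215 with no fold minimum, 561 to 2081), 1892 in induced ones (776 with only the 4 libraries, 4379 with no fold minimum, 880 to 2875) and 58 in the interaction (209 with no filter, 163 with DESeq2, 107 with limma-voom, 1 to 691). Without a fold minimum fewer conditions apply. With only 4 libraries the spread rests on fewer samples. The counts then rose with induction in 2D and in uninduced spheroids (to 2046), and fell with induction in 3D and in induced spheroids. The cause of these shifts was not tested.

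The replicate block took the Mmp13 interaction to 1.54 at adjusted p = 0.057 and changed no other member's call. Whether the replicate numbers pair the samples cannot be told from these libraries.

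Signs turned in values that were not called, given here as ranges over the fits without 1 library: with induction in 3D, Mmp13 from -0.05 to 0.31; in uninduced spheroids, Mmp11 from -0.29 to 0.09 and Timp4 from -0.72 to 0.13 (0.72 with synapsin counts added); in the interaction, Mmp2 from -0.02 to 0.64, Mmp3 from -0.26 to 2.07, Mmp8 from -0.77 to 0.11, Mmp14 from -0.16, with -0.04 lacking 3D uninduced replicate 1, to 0.37 and Timp3 from -0.27 to 2.52. The interaction needs all 4 groups, so it has no fit on 4 libraries. Timp4, at 5 to 30 counts outside 2D induced cultures, is limited by depth. Syn2 had more counts than Timp4 in every library but 2D uninduced replicate 2, so Timp4 values with synapsin counts added rest largely on Syn2.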
